A study of Mus musculus with 9 samples.

Results

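Tight junction genes were followed in cultures of 1 established line, 4T1, which comes from a mouse mammary carcinoma and spreads to the lung in mice. The set held 9 genes named by hand, Cldn1, Cldn3, Cldn4, Cldn7, Cldn12, Ocln, F11r, Tjp1 and Cgn, out of 24421 genes in the count table. All 9 were found by symbol, and all 9 passed the filter on low counts that 12575 genes passed. No measured value was used to name them, although earlier results of these data were known when the set was proposed.

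Poly(A) RNA was sequenced from 3 conditions with 3 libraries each, all kept in culture for 5 days. The first condition was 3D spheroids on soft agar without added palmitate, which received the albumin and ethanol vehicle. The second was 3D spheroids with 75 µM palmitate coupled to albumin, and the third was 2D monolayers with the same 75 µM palmitate. The labels give no genetic change in any group, all cultures grew in medium with serum, and a 2D culture without added palmitate was not analysed here. Levels are given as CPM, the reads of a gene relative to the library total after TMM scaling. Differences were tested with edgeR's quasi-likelihood test on the raw counts, with Benjamini-Hochberg adjustment over all 12575 genes, and a gene was called at an adjusted p-value under 0.05. The labels do not say whether the libraries of a group came from separate cultures, so these p-values measure only the spread between these libraries.

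Tight junctions seal the space between neighbouring epithelial cells near their apical border. Claudins are membrane proteins that form the strands, and they set how tight and how ion-selective the seal is, whereas occludin and the junctional adhesion molecules are membrane partners in the same contact. On the inner face, zonula occludens proteins and cingulin tie the strands to actin and microtubules, and polarity complexes place the junction. In carcinoma cells claudins are often kept but change in amount and in place on the cell surface.

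Total counts ranged from 6595514 to 31177756 per library, and the smallest library was replicate 3 of the 3D cultures with palmitate. Epithelial markers were present in every condition. Of 8 such markers 7 had a mean over 1 CPM in every condition, and Krt5, a basal keratin, was near 0. Their summed level was 5212 to 5277 CPM in 3D, 5077 to 5336 CPM in 3D with palmitate and 4039 to 4358 CPM in 2D with palmitate. Not all of them went with the sum. Between 3D and 2D with palmitate 4 were called higher, 1 lower and 2, Krt14 and Cdh1, were not called, or 71.4% called beside 68.3% of all genes. The lower 1 was Krt7, at 607 CPM in 3D and 866 CPM in 2D with palmitate. Endothelial markers, 6 genes, summed to at most 1.49 CPM. The 6 fibroblast markers summed to 91.7 to 106.5 CPM, 93.4 to 111.2 CPM and 33.3 to 34.6 CPM in the same order, nearly all from Pdgfra, and Lum was at 0 in every library. The 6 leukocyte markers summed to 7.16 to 8.93 CPM, 8.58 to 11.5 CPM and 24.4 to 27.8 CPM, nearly all from Cd68, and Adgre1 and Cd3e were at 0. Pdgfra was lower and Cd68 higher in 2D culture, whereas other genes of these lists went the other way at low levels. Col1a1 had 0.304 to 1.62 CPM in 3D with palmitate and 2.05 to 2.44 CPM in 2D, and Col1a2 had at most 0.153 CPM and 0.929 to 1.57 CPM. Ptprc had 0.258 to 0.613 CPM in 3D with palmitate and at most 0.165 CPM in 2D. The part of these genes in the results below was not tested.

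Cldn3 and Cldn4 are neighbours on mouse chromosome 5 and encode closely related strand-forming claudins that are typical of simple epithelia. In GRCm38, Cldn3 is at chr5:134986214-134987472 on the plus strand and Cldn4 is at chr5:134945119-134946934 on the minus strand, each with 1 exon. Of the exon of Cldn3, 40 bases, or 3.18%, overlap the antisense gene Wbscr25. The other members lie apart from them and from each other. Cldn7 is at chr11:69964779-69967885 and Ocln at chr13:100496507-100552718. The 250 bases upstream of 1 start site each are shown for these 4 genes, since the first pair was lower and the second pair higher in 3D than in 2D culture. Cldn12 and Cgn, which were also lower, and Cldn1, which was also higher, are not shown. The sequences are from RefSeq (GRCm38.p6), run 5′ to 3′ on the strand of the gene, and overlap no annotated exon. Capitals mark 2 motifs searched on both strands: the E-box CAGGTG, which Snail and Zeb repressors bind, and the GC box GGGCGG, which Sp factors bind. The windows are chr5:134985964-134986213 (plus), chr5:134946935-134947184 (minus), chr11:69964529-69964778 (plus) and chr13:100552719-100552968 (minus).
Cldn3: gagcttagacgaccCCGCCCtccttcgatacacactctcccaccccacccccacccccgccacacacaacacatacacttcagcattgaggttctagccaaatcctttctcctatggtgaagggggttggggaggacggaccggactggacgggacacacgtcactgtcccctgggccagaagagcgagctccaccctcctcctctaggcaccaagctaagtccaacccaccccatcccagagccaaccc
Cldn4: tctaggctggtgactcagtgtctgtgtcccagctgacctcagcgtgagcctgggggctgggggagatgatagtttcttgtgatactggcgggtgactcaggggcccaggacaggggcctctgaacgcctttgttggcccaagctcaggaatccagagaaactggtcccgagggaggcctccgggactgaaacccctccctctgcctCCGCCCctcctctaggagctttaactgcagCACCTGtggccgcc
Cldn7: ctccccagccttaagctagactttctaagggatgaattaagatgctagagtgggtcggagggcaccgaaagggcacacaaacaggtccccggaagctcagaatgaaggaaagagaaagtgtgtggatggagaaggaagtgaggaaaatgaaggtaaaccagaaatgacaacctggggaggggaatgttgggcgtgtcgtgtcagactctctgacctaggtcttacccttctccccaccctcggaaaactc
Ocln: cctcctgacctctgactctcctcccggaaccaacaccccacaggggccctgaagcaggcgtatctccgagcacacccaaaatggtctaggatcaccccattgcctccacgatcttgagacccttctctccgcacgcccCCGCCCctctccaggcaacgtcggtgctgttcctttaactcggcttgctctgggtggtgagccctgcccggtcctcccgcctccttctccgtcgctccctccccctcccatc

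All 9 members matched a RefSeq start, in 13 windows because some genes have several starts. The E-box was present in 4 of the 13 windows, 1 each of Cldn4, Cldn7, Ocln and F11r, beside 17.2% of all 32817 promoter windows of 250 bases. In the Cldn4 window printed above it began 14 bases before the start, and in Cldn7 and Ocln it stood only in the window of a second start, which is not printed. The GC box was present in 11 of 13 windows, beside 32.7% of all windows. The windows of Cldn12 overlapped each other, as did those of Ocln, and the same GC box of Cldn12 was counted in more than 1 window. The windows are therefore not separate counts. The Cldn7 window printed above held neither motif, whereas the window of its second start held both. The Grainyhead motif, AACCGGTT or AACTGGTT, was in 0 of 13 windows, beside 0.771% of all windows. These are matches of letters, and no binding was measured.

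The question of the first comparison was how 3D growth differed from 2D growth when both had added palmitate. Of the 9 members 3 were higher in 3D (Cldn7, Cldn1 and Ocln), 4 were lower (Cldn3, Cldn4, Cldn12 and Cgn), and Tjp1 and F11r were not called. Of all genes tested, 68.3% were called in this comparison, 34.5% higher and 33.9% lower, so 7 of 9 is a share near that of the whole table. The groups did not overlap for 7 of 9 members, against 69.4% of all genes. The median log2 difference of the members was -0.08, and that of all genes was 0.01. In bulk RNA, fewer cells of a type and less RNA per cell cannot be told apart.

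**Figure D1:**
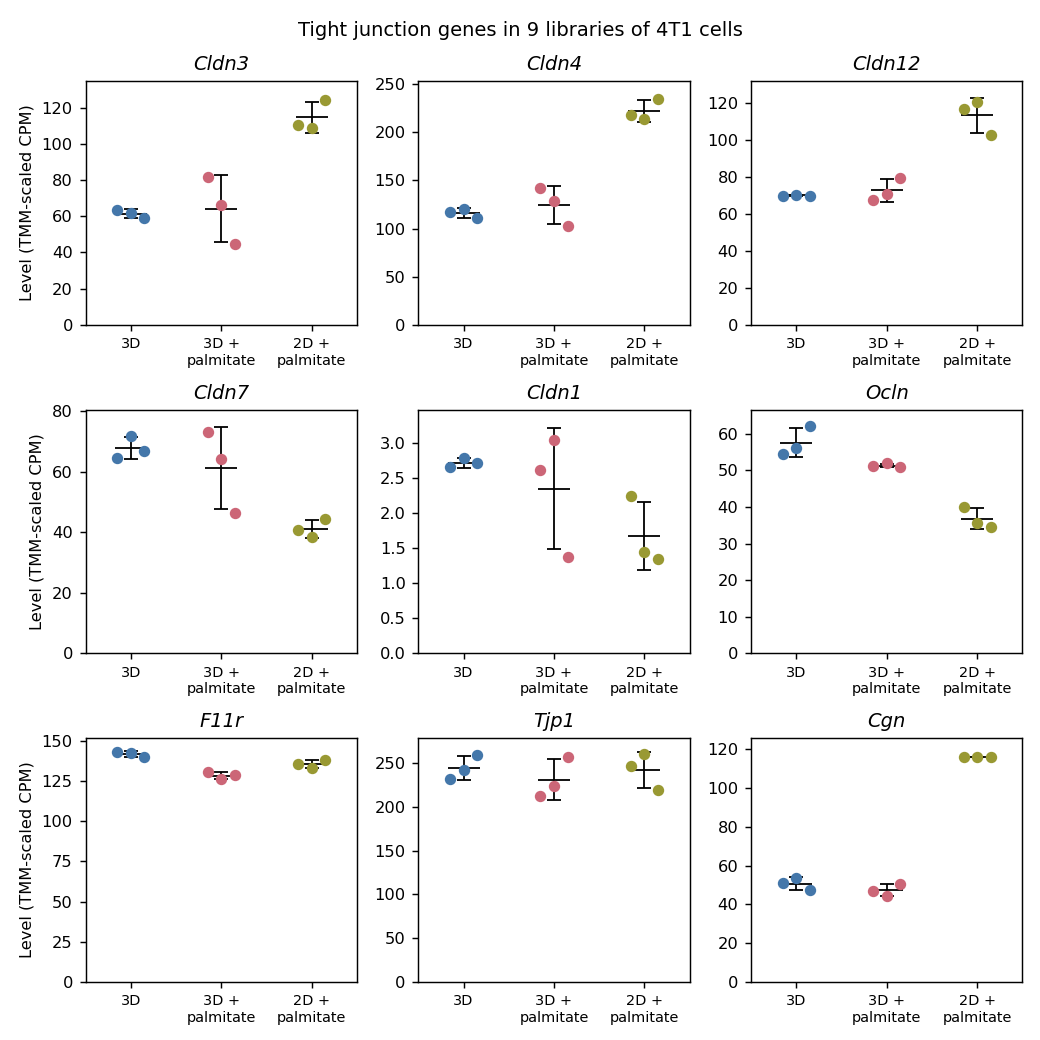
Levels of the 9 genes in each of the 9 libraries, in TMM-scaled CPM on linear axes from 0, with points for libraries and bars for the mean ± SD of 3. The 3 libraries of 2D culture with palmitate lie above all 6 libraries of 3D culture for Cldn3, Cldn4, Cldn12 and Cgn, and below all 6 for Cldn7 and Ocln.

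Among the strand-forming claudins, Cldn3 had 63.4, 62.0 and 58.8 CPM in the 3D libraries. It had 81.7, 66.4 and 44.7 CPM in 3D with palmitate, and 110, 109 and 124 CPM in 2D with palmitate. The 2D libraries were all above the others, while the 3D libraries with palmitate spread most. Cldn3 was 1.73-fold lower in 3D than in 2D culture with palmitate (log2 fold change -0.79, SE 0.138, edgeR adjusted p = 0.000134). Once the GC and length trend was removed, this difference was -0.51 and still called (adjusted p = 1.23e-07).

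Its neighbour Cldn4 was also lower in 3D. Its level was 117, 120 and 111 CPM in 3D, 142, 128 and 103 CPM in 3D with palmitate, and 218, 213 and 235 CPM in 2D with palmitate. Again every 2D library lay above every 3D library. The log2 fold change was -0.82 (SE 0.0920, edgeR adjusted p = 1.87e-06), a 1.77-fold lower level in 3D. The log2 ratio of Cldn3 to Cldn4 per kb of exon was -0.39 ± 0.03 in 3D, -0.46 ± 0.21 in 3D with palmitate and -0.43 ± 0.03 in 2D with palmitate (SD, n = 3), and the libraries of the 3 conditions overlapped in this ratio.

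Cldn12, at chr5:5489537-5514958, is an atypical claudin that lacks the PDZ-binding tail by which most claudins hold zonula occludens proteins. It had 69.9, 70.2 and 70.0 CPM in 3D, 67.6, 70.9 and 79.6 CPM in 3D with palmitate, and 117, 121 and 103 CPM in 2D with palmitate. The 2D libraries were highest without overlap. The log2 fold change between 3D and 2D with palmitate was -0.65 (SE 0.0765, edgeR adjusted p = 2.98e-06), or 1.57-fold lower in 3D.

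Cldn7, a claudin that also lies along the lateral membrane and binds Epcam, went the other way. It had 64.6, 71.9 and 66.8 CPM in 3D, 73.2, 64.1 and 46.4 CPM in 3D with palmitate, and 40.6, 38.5 and 44.2 CPM in 2D with palmitate. The groups with palmitate did not overlap, although the lowest 3D library came close to the highest 2D one. Cldn7 was 1.53-fold higher in 3D (log2 fold change 0.61, SE 0.119, edgeR adjusted p = 0.000354).

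Cldn1, at chr16:26356642-26371841, is needed for the water barrier of the epidermis and was the lowest member by far, with between 9 and 71 counts per library. It had 2.65, 2.78 and 2.71 CPM in 3D, 2.61, 3.04 and 1.38 CPM in 3D with palmitate, and 2.23, 1.44 and 1.34 CPM in 2D with palmitate. Here the groups overlapped. The log2 fold change of 0.68 (SE 0.245, edgeR adjusted p = 0.0233) was called, but the call was lost without replicate 1 or 2 of the 3D cultures with palmitate (adjusted p = 0.0827 and 0.1) and without replicate 2 or 3 of the 2D cultures (adjusted p = 0.102 and 0.0897). It was also lost with DESeq2 (adjusted p = 0.0552) and with the share of Rn45s as a covariate (adjusted p = 0.11).

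Ocln, which encodes occludin, a membrane protein of the strands, had 54.6, 56.1 and 62.1 CPM in 3D, 51.1, 51.9 and 51.0 CPM in 3D with palmitate, and 40.1, 35.7 and 34.6 CPM in 2D with palmitate. The 2D libraries were lowest, with no overlap. The log2 fold change was 0.49 (SE 0.0757, edgeR adjusted p = 4.55e-05), higher in 3D.

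F11r, at chr1:171437535-171464603, encodes the junctional adhesion molecule JAM-A, an immunoglobulin-like protein that recruits polarity proteins. It had 143, 143 and 140 CPM in 3D, 130, 126 and 129 CPM in 3D with palmitate, and 136, 133 and 138 CPM in 2D with palmitate. Each group was narrow, and the 3D libraries with palmitate were the lowest of the 9. The difference between 3D and 2D culture with palmitate was not called (log2 fold change -0.08, 95% interval -0.20 to 0.04, edgeR adjusted p = 0.215).

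On the cytoplasmic plaque, Tjp1 and Cgn differed from each other. Tjp1, at chr7:65296165-65527781, encodes ZO-1, the scaffold that gathers claudins and occludin. It had 232, 243 and 260 CPM in 3D, 212, 223 and 257 CPM in 3D with palmitate, and 246, 260 and 219 CPM in 2D with palmitate. The groups overlapped, and the log2 fold change between the cultures with palmitate was -0.07 (95% interval -0.25 to 0.11, edgeR adjusted p = 0.460). With the trend of every library along exon GC content and length taken out, the difference was -0.40 and was called, lower in 3D (adjusted p = 1.89e-07).

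Cgn, at chr3:94760069-94786492, encodes cingulin, which binds ZO-1, actin and microtubules and holds a RhoA activator at the junction. It had 51.2, 53.6 and 47.4 CPM in 3D, 47.1, 44.3 and 50.5 CPM in 3D with palmitate, and 116 CPM in each of the 3 libraries of 2D culture. The gap between 2D and 3D was wide, with no overlap. Cgn was 2.47-fold lower in 3D than in 2D culture with palmitate (log2 fold change -1.30, SE 0.0687, edgeR adjusted p = 6.64e-10), the largest difference among the 9 members.

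**Figure D2:**
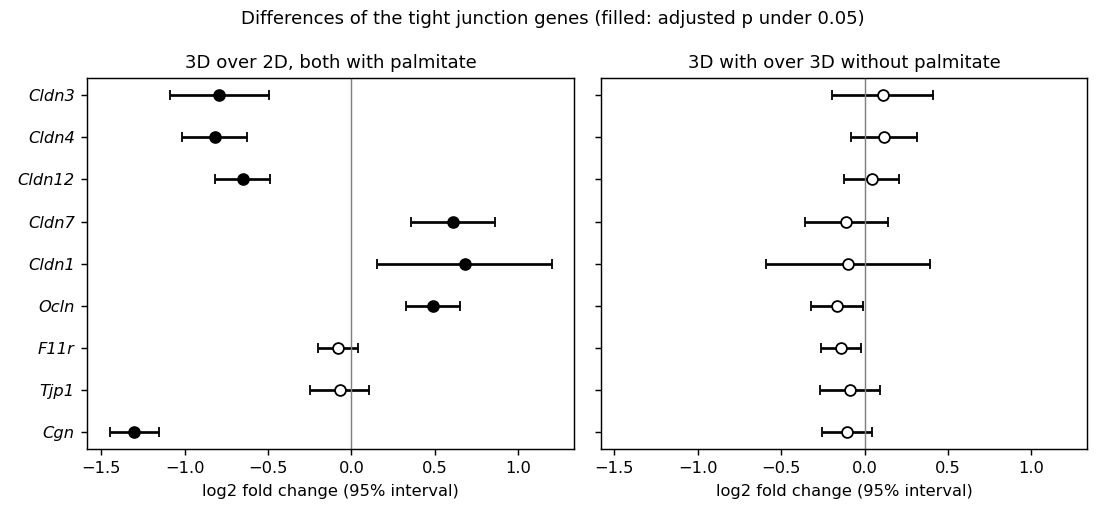
Log2 fold changes of the 9 genes with 95% intervals, on the left 3D over 2D culture with palmitate and on the right 3D with over 3D without palmitate, with filled points where the edgeR adjusted p was under 0.05. On the left 7 points are filled, from -1.30 for Cgn to 0.68 for Cldn1, and on the right none are.

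The second comparison asked what added palmitate changed in 3D culture, and it shares the 3D libraries with palmitate with the first. Of the 9 members 0 were called by edgeR, beside 2.19% of all genes, and DESeq2 called 0 as well. At an unadjusted p under 0.05 there were 2 members, F11r and Ocln. F11r differed by -0.14 on the log2 scale (SE 0.0557, edgeR adjusted p = 0.203) and Ocln by -0.17 (SE 0.0741, edgeR adjusted p = 0.270). These were also the 2 of 9 members whose groups did not overlap, both lower with palmitate, beside 18.6% of all genes without overlap. F11r was called with the GC and length trend removed (log2 fold change -0.17, adjusted p = 0.0159).

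For the claudins the intervals of the palmitate difference were wide. The log2 fold change was 0.11 for Cldn3 (95% interval -0.19 to 0.41), 0.11 for Cldn4 (-0.08 to 0.31) and 0.04 for Cldn12 (-0.12 to 0.21). It was -0.11 for Cldn7 (-0.36 to 0.14) and -0.10 for Cldn1 (-0.59 to 0.39). For the plaque genes it was -0.09 for Tjp1 (-0.26 to 0.09) and -0.11 for Cgn (-0.26 to 0.04). A call that was missed does not show that the levels were equal.

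The smallest library, replicate 3 of the 3D cultures with palmitate, was the lowest of its group for 5 of 9 members and the lowest of all 9 libraries for Cldn3 and Cldn4. Without it, Cldn3 and Cldn4 were called higher with palmitate (log2 fold changes 0.28 and 0.22, edgeR adjusted p = 0.0313 and 0.0293). The number of genes called over the whole table was then 1901 in place of 275. The exons of Cldn3 and Cldn4 are 62.7% and 56.8% GC. With the GC and length trend removed, Cldn3 was 66.7 ± 6.79 CPM in place of 64.3 ± 18.6 CPM (SD, n = 3) and Cldn4 was 128 ± 7.44 CPM in place of 125 ± 19.8 CPM. The palmitate difference of Cldn3 was then 0.0099 and that of Cldn4 was 0.07, and neither was called (adjusted p = 0.949 and 0.401).

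Levels were compared between genes per kb of exon. In 2D culture with palmitate Cldn4 was highest, at 122 CPM per kb, followed by Cldn3 at 91.1, F11r at 54.0, Tjp1 at 34.0, Cldn12 at 28.8, Cldn7 at 27.8, Cgn at 19.3, Ocln at 8.71 and Cldn1 at 0.514 CPM per kb. Neighbours in that order overlapped only for Cldn12 and Cldn7. In 3D culture without palmitate the order was Cldn4 at 63.9, F11r at 56.4, Cldn3 at 48.8, Cldn7 at 45.9, Tjp1 at 34.4, Cldn12 at 17.8, Ocln at 13.6, Cgn at 8.42 and Cldn1 at 0.835 CPM per kb, with overlap only between Cldn3 and Cldn7. Cldn7 thus stood above Tjp1 in 3D and below it in 2D culture, and Ocln and Cgn traded places. In 3D with palmitate Cldn4, at 68.6 CPM per kb, overlapped Cldn3 at 51.1, which overlapped F11r at 51.0, and Cldn7 at 41.5 overlapped Tjp1 at 32.5.

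The make-up of the claudin pool was described as the share of each gene in the summed counts per kb of the 5 member claudins. Cldn7 made up 24.7%, 26.6% and 26.4% of it in the 3D libraries and 23.5%, 23.4% and 21.8% in 3D with palmitate. In 2D with palmitate it made up 10.3%, 9.98% and 10.5%. Its share was thus lowest in 2D culture and somewhat lower with palmitate in 3D, with no overlap between any of the groups. The difference between 3D and 2D with palmitate was 12.6 percentage points, and that between 3D with and without palmitate was -3.01 points. Each had p = 0.1 in an exact two-sided permutation test, the smallest that 3 against 3 libraries allow, and 0.167 after Benjamini-Hochberg adjustment over 10 such tests.

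Cldn4 held 36.1% ± 0.465 of the pool in 3D, 38.2% ± 1.10 in 3D with palmitate and 45.2% ± 0.217 in 2D with palmitate (SD, n = 3). Its groups did not overlap in either comparison, and both tests gave the same smallest exact p. Cldn3 held 27.5% ± 0.760, 27.9% ± 3.13 and 33.6% ± 0.952 in the same order, apart only between 3D and 2D. Cldn12 held 10.04% ± 0.299, 10.6% ± 3.04 and 10.7% ± 1.34, with overlap throughout (exact permutation p = 1 in both tests). Cldn1 was under 1% everywhere, at 0.472%, 0.393% and 0.191% on average. As a log2 ratio per kb, Cldn7 stood at -0.48 ± 0.07 relative to Cldn4 in 3D, -0.74 ± 0.10 in 3D with palmitate and -2.14 ± 0.03 in 2D with palmitate (SD, n = 3).

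**Figure D3:**
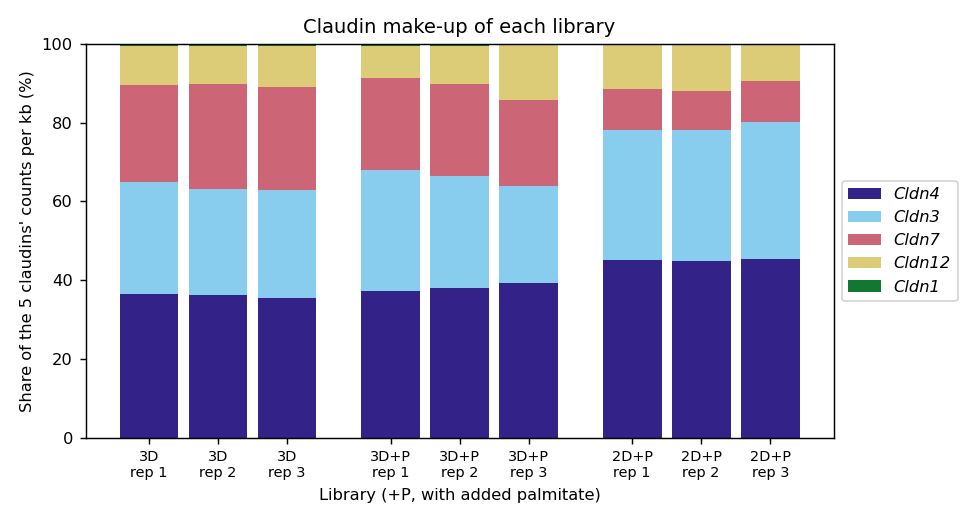
Share of each of the 5 member claudins in their summed counts per kb of exon, in percent, with 1 bar per library. The share of Cldn7 is between 21.8% and 26.6% in the 6 libraries of 3D culture and between 9.98% and 10.5% in the 3 libraries of 2D culture, and Cldn1 is too low to be seen in most bars.

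Other tight junction genes were taken from lists of 74 genes, of which 50 passed the filter. Of these, 19 were higher and 16 lower in 3D than in 2D culture with palmitate, or 70% called, and 15 were not called. That is near the 68.3% of all genes called. The median log2 difference of the 50 was 0.11, beside 0.01 for all genes. Of 22 other claudins only 4 passed the filter, and the remaining 18 had at most 16 counts in any library.

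Cldn23 had 4.75 to 6.70 CPM in 3D with palmitate and 1.92 to 2.15 CPM in 2D, with a log2 fold change of 1.58 (SE 0.169, edgeR adjusted p = 1.10e-06). Cldn2, the claudin that forms channels for small cations, had 52 counts over the 3D libraries with palmitate and 2 over the 2D libraries. That is a ratio of 36.5 after scaling, with an exact 95% interval for counting error of 9.60 to 309 (edgeR adjusted p = 1.14e-06), and 80 counts were found over the 3D libraries without palmitate. Cldn2 passed the filter on low counts only through its 3D libraries, so it was tested only because it was high there. Its ratio and p-value are therefore no separate support for a difference, and it is among the genes counted above as higher. Cldn9 was lower in 3D (log2 fold change -0.59, edgeR adjusted p = 0.0165, called in 7 of 9 fits with 1 library left out) and Cldn6 was not called (0.37, adjusted p = 0.182). Cldn6 and Cldn9 are close paralogs between which short reads may be split.

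Of 6 further membrane proteins 3 were higher in 3D, 0 lower and 3 not called. That is 50% called, beside 68.3% of all genes. Marveld2, which encodes tricellulin of the corners where several cells meet, was 63.6 ± 2.49 CPM in 3D and 35.3 ± 1.11 CPM in 2D with palmitate (SD, n = 3), a log2 fold change of 0.86 (edgeR adjusted p = 4.05e-08). Marveld3, of the same family, differed by 0.82 and Cxadr, the adenovirus receptor of the junction, by 0.47. Lsr, which brings tricellulin to those corners, was not called (0.10, edgeR adjusted p = 0.266).

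Of 14 further plaque genes 7 were higher, 5 lower and 2 not called, or 85.7% called beside 68.3% of all genes. Cgnl1, the paralog of Cgn that encodes paracingulin, had 490, 534 and 635 CPM in 3D with palmitate and 224, 228 and 189 CPM in 2D. Its log2 fold change was 1.37 (SE 0.0925, edgeR adjusted p = 9.49e-09), opposite in sign to that of Cgn. Tjp3, which encodes the scaffold ZO-3, was higher (0.82, edgeR adjusted p = 8.64e-06). Amotl2, an angiomotin that binds Yap and actin, was 35.1 ± 2.42 CPM in 3D and 184 ± 2.16 CPM in 2D with palmitate (SD, n = 3), a log2 fold change of -2.37 (edgeR adjusted p = 1.62e-12), whereas its relative Amotl1 was higher (1.01, edgeR adjusted p = 8.90e-08).

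Of 14 polarity genes 5 were higher, 5 lower and 4 not called, or 71.4% called beside 68.3% of all genes. Pard6b, the adaptor of the Par complex, was lower in 3D (log2 fold change -1.04, edgeR adjusted p = 9.67e-09). So was Prkci, an atypical protein kinase C of that complex (-0.97, edgeR adjusted p = 1.17e-07). Other genes of the complex went the other way: Prkcz, also an atypical kinase, was higher (0.58, edgeR adjusted p = 0.000174), as was Pard3 (0.39, edgeR adjusted p = 0.000175). Crb3, the membrane anchor of the Crumbs complex, was higher (0.96, edgeR adjusted p = 0.00011). Of 12 genes of junction signalling and traffic 2 were higher, 5 lower and 5 not called, or 58.3% called beside 68.3% of all genes. Among them Cd9, a tetraspanin, was at 629 ± 21.0 CPM in 3D and 273 ± 16.0 CPM in 2D with palmitate (SD, n = 3, log2 fold change 1.21, edgeR adjusted p = 5.49e-10). Ybx3, which encodes the ZO-1-associated factor ZONAB, was lower (-0.96, edgeR adjusted p = 1.11e-07).

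**Figure D4:**
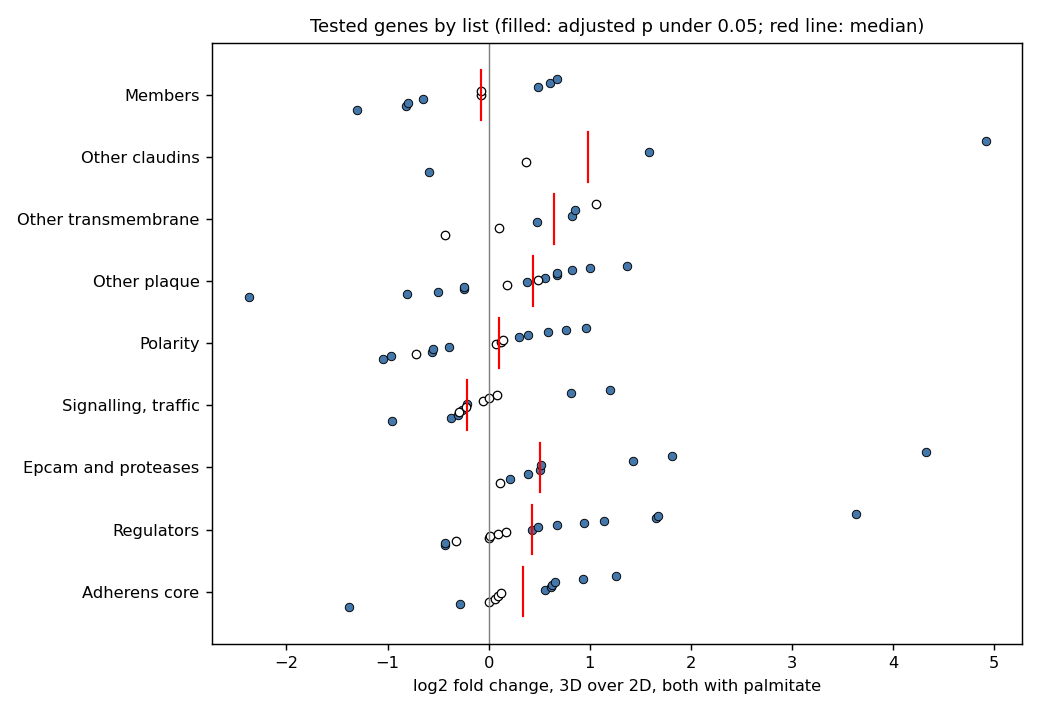
Log2 fold change of each tested gene, 3D over 2D culture with palmitate, by gene list, with filled points where the edgeR adjusted p was under 0.05 and a red line at the median of the list. The members lie on both sides of 0, as do the plaque, polarity and signalling lists, and no called gene of the Epcam and protease list lies below 0. The rightmost points of the claudin list and of that list are Cldn2 and Tmprss4, whose fitted values rest on 2 and 4 counts in 2D culture.

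Epcam and the membrane serine proteases act on Cldn7 in epithelia: Epcam binds it, and matriptase, encoded by St14, cleaves Epcam unless an inhibitor such as Spint1 holds it. Of the 8 genes of this list 7 were higher in 3D, 0 lower and 1, Spint2, was not called, or 87.5% called with a median log2 difference of 0.51. Of all genes 68.3% were called, 34.5% higher. Epcam had 672, 701 and 749 CPM in 3D with palmitate and 266, 257 and 266 CPM in 2D (log2 fold change 1.43, SE 0.0597, edgeR adjusted p = 5.81e-11). Spint1 was 265 ± 33.7 CPM and 75.6 ± 1.74 CPM in these groups (SD, n = 3), a log2 fold change of 1.82 (edgeR adjusted p = 1.27e-10). The difference was 0.52 for Prss8, 0.38 for F2rl1 and 0.21 for St14. Tmprss4 had 62 counts over the 3D libraries with palmitate and 4 over the 2D libraries, a ratio of 21.7 with an exact 95% interval for counting error of 8.08 to 82.3. Tmprss4 passed the filter on low counts only through its 3D libraries, so it was tested only because it was high there. As 1 of the 7 it adds no separate support to that count.

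Of 15 regulators of epithelial genes 8 were higher in 3D, 2 lower and 5 not called. The 66.7% called is near the 68.3% of all genes, and the median log2 difference was 0.43. Higher were Ehf (log2 fold change 3.63), Ovol1 (1.68), Tfcp2l1 (1.66), Klf5 (1.14), Grhl3 (0.94), Grhl1 (0.67), Tcf4 (0.48) and Snai1 (0.43), of which Snai1 was called in 8 of 9 fits with 1 library left out. Ehf was low in 2D with palmitate, at 0.579 to 0.673 CPM, and spread from 6.44 to 12.9 CPM in 3D with palmitate. Its lowest count in a library was 7. Ehf belongs to the epithelial Ets factors. Ovol1, Grhl1 and Grhl3 are known as factors of epithelial identity, whereas Snai1 and Tcf4 are known as repressors of epithelial genes. Lower were Elf3 (-0.43), an epithelial Ets factor, and Zeb2 (-0.43), a repressor of E-cadherin and of claudins. Grhl2, which activates Cldn4 in kidney epithelium, was not called (0.09, edgeR adjusted p = 0.214). Klf4, Ovol2, Twist1 and Zeb1 were not called either.

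In the adherens junction, which lies just below the tight junction, 6 of 12 genes were higher, 2 lower and 4 not called. Here too 66.7% were called, beside 68.3% of all genes, and the median log2 difference was 0.34. Higher were Jup (log2 fold change 1.26), Ctnnb1 (0.94), Pvrl4 (0.66), Vcl (0.63), Ctnnd1 (0.62) and Pvrl1 (0.55), which encode catenins, vinculin and nectins, and Pvrl4 was called in 5 of 9 fits with 1 library left out. Lower were the nectins Pvrl2 (-1.38, edgeR adjusted p = 3.19e-08) and Pvrl3 (-0.29). Cdh1, which encodes E-cadherin, was not called (0.12, edgeR adjusted p = 0.0589).

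With palmitate in 3D culture, 1 of the 50 further tight junction genes was called, or 2%, beside 2.19% of all genes. That gene was Amotl2, at 35.1 ± 2.42 CPM with and 23.9 ± 1.22 CPM without palmitate (SD, n = 3; log2 fold change 0.57, SE 0.0735, edgeR adjusted p = 0.00105), and it was called in 9 of 9 fits with 1 library left out. Of the Epcam and protease list Prss8 fell by 0.37 on the log2 scale (edgeR adjusted p = 0.0385), from 22.7 ± 0.453 to 17.5 ± 0.522 CPM (SD, n = 3), but it was called in only 2 of 9 such fits. Of the regulators and of the adherens junction genes 0 were called by edgeR. Epcam differed by -0.22 and was not called (edgeR adjusted p = 0.0664).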

How the data were processed

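The authors deposited raw counts of reads per gene, without normalization. Per the labels and the methods of the study, RNA was extracted with TRIzol, libraries were made with a stranded poly(A) kit, single-end reads were cleaned with fastq-mcf and inspected with FastQC (version 0.11.9), then aligned to GRCm38 with HISAT2 (version 2.1.0) and counted with HTSeq-count. The annotation release and the strand setting of the counting are not given in the sources used here, so reads of Cldn3 and its antisense neighbour could not be told apart with certainty. The authors tested with DESeq2.

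Here, filterByExpr kept 12575 of 24421 genes, libraries were scaled by TMM, and all 9 libraries were fitted with condition as the only term in edgeR 4.0.16 (R 4.3.3). The fit was tested on simulated data. For 3D against 2D culture, edgeR called 188 of 198 genes simulated as changed and made 16 false calls over 12400 genes. For palmitate in 3D it called 188 of 199 and made 15 false calls over 12417 genes. DESeq2 made 16 and 19 false calls in the same order. Only 200 genes were made to differ in the simulated data, whereas 8594 of 12575 genes were called between 3D and 2D culture with palmitate. How the fit performs when most genes differ was not tested. No pair of libraries of a group agreed within sampling noise. The alternatives were DESeq2 1.42.0, scaling by RLE or by library size only, a minimum of 10 counts per library or no minimum, a fit of the compared groups alone, a block for the replicate number, a covariate for the share of Rn45s (1.77% to 5.38% of counts), a fit without each library in turn, and removal of the trend with GC content and length by splines with 4 degrees of freedom. Since that trend is fitted in each library, its removal also takes out any trend between conditions.

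Exon lengths, GC content and positions are from GENCODE M21 and promoters from RefSeq, both GRCm38. Members and gene lists were chosen with earlier results of these data known. Genes named beyond the members were, in each direction and comparison, the 3 called genes with the smallest p over the lists, every claudin that passed the filter, Tjp3, Marveld2, Lsr, Epcam, and the regulators and adherens junction genes that were counted. Others (Cgnl1, Amotl1, Marveld3, Cxadr, Prkci, Prkcz, Pard3, Crb3, Ybx3 and the proteases) were named after their values were seen. Some genes of the lists are counted but not reported here by name. Exact intervals cover counting error only.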

Additional observations from a re-analysis of the deposited data

How the results depend on the processing

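Between 3D and 2D culture with palmitate the calls of 6 members (Cldn3, Cldn4, Cldn7, Cldn12, Ocln and Cgn) and their directions held under every alternative, and over the members 152 of the values by setting kept direction and side of the threshold. Cldn1 lost its call under 7 settings and had no value with at least 10 counts in every library. Tjp1 was called, at -0.40, and F11r turned to 0.0059, not called, once the GC and length trend was removed. In the shares of raw counts in place of counts per kb, the difference of Cldn7 was 10.3 points and that of Cldn1 0.369 points. The palmitate comparison moved more. The number of all genes called, 275, was 617 with no filter, 1019 without the GC and length trend, 44 with the Rn45s covariate, 77 with the compared groups alone and 71 to 1901 with 1 library left out, with the highest number when the smallest library was the one left out. Of the 275 genes 62.9% were higher, against 46.7% of 227 with scaling by library size only and 52.7% with no filter. The number of members called, 0, was 1 (F11r) with that trend removed and 0 to 2 with 1 library left out. The number of further tight junction genes called, 1, was 2 with that trend removed and 1 to 6 with 1 library left out. Differences that were not called changed sign: Cldn1 was 0.013 with the trend removed, and with 1 library left out Cldn1 ranged from -0.24 to 0.035, Cldn3 from -0.11 to 0.28, Cldn7 from -0.26 to 0.028 and Cldn12 from -0.019 to 0.093. A fit without a library shows only that the result depends on that library, and the cause of these shifts was not tested.

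Samples with the same replicate number did not deviate together (r from -0.238 to 0.145, median -0.051, over 9 pairs, against a median of 0.027 over 18 other pairs), so the numbers were not taken as a pairing. With the replicate block, 111 genes were called for palmitate, and the adjusted p of Cldn1 between 3D and 2D culture was 0.0512; it changed no other call of a member. The smallest library limits Cldn1, with 9 counts there.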
